A study of Mus musculus with 15 samples.

Results

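Mt1 and Mt2 are the metallothionein genes that most mouse tissues express. All probe sets annotated to them were read on 15 Affymetrix MGU74A arrays of mouse embryonic stem (ES) cell RNA (a probe set is the group of short probes that together read 1 transcript). Each gene has 1 probe set there, so the members are 2 of the 8221 genes named on the array. The pair was chosen by differences between the cell lines in these same data, so those differences are described here with no test. The serum responses, which the choice did not use, were tested, although earlier results of these data were known when the pair was chosen.

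The series follows ES cells of different Srf genotype through stimulation with fetal bovine serum (FBS). Srf encodes serum response factor, a transcription factor that binds CArG boxes in the promoters of serum-induced and actin cytoskeleton genes. The 3 lines are E14wt (wild type), E100-/- (Srf-null by its label) and E100-/- rescue, and each was sampled at 0, 10, 30, 60 and 180 min of FBS with 1 array per line and time. How the rescue was made, the concentration of FBS, any serum starvation beforehand and whether a line is 1 clone are not given in the labels used here, and the annotation used names 0 probe sets for Srf itself, so the genotypes were not checked on that transcript. By its name the rescue line derives from E100-/-, and all 3 lines received the same serum times. No time point has a second array, so the p-values below measure the spread between time points of what may be a single culture series per line.

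Metallothioneins are small, cysteine-rich proteins that bind zinc and copper and, in excess, cadmium. Their genes are switched on by zinc through the zinc-sensing transcription factor MTF-1, which binds metal response elements (MREs) in their promoters, and glucocorticoids, cytokines acting through STAT3 and oxidative stress are further inducers. Transcript levels of Mt1 and Mt2 are widely used as a readout of zinc that is available in the cell.

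Both genes lie on the plus strand of chromosome 8 in the RefSeq annotation of GRCm38.p6, next to each other among protein-coding genes, with Mt2 first and start sites 6471 bases apart. Mt3 and Mt4, the other metallothionein genes, lie next to Mt2 on its far side. The 250 bases before each annotated start site are printed because the pair moved together on these arrays and MREs are known in the promoters of metallothionein genes. Capitals mark matches to the MRE core, TGCACNC or TGCGCNC on either strand, and the windows are chr8:94178839-94179088 for Mt1 and chr8:94172368-94172617 for Mt2.
Mt1: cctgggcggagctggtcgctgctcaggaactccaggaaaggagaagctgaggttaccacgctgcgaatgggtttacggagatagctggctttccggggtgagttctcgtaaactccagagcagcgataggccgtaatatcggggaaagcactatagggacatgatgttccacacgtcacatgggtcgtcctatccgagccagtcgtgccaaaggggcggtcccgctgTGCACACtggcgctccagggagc
Mt2: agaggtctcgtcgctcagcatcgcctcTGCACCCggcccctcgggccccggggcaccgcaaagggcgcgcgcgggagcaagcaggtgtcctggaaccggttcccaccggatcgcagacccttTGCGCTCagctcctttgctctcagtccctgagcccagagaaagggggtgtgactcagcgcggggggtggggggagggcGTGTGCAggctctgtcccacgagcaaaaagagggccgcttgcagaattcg

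The Mt1 window held 1 match to the MRE core, TGCACNC from base -23 to -17 before the start site. The Mt2 window held 3, with TGCACNC from -223 to -217, TGCGCNC from -128 to -122 and TGCACNC on the minus strand from -50 to -44. At least 1 such match occurred in 21.4% of the 32851 promoter windows of this length in RefSeq, and 1.26% held at least 3. With the 50 bases after the start site included, Mt1 had 3 matches and Mt2 had 4, and 25.7% of windows of that length had any. For Mt1 the printed window thus leaves out matches close to its annotated start site, and it does not show the whole promoter. Taken by core, TGCACNC occurred in 10.4% of windows and TGCGCNC in 12.5%. The Mt2 window also held the antioxidant response element TGACNNNGC from -79 to -71, a match that 10.2% of windows had. No CArG box (1.47% of windows) and no E-box CACGTG (6.02% of windows) was found in either window. Motifs were searched on both strands, the listed matches do not overlap, and no match says only that these letters are not in this stretch.

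Levels were read as quantile-normalized intensity, which compares arrays for one probe set but not one gene with another. Mt1 gave 8353, 4575, 3518, 10274 and 20066 in E14wt at 0, 10, 30, 60 and 180 min. In E100-/- it gave 2031, 2037, 1481, 4548 and 14379 at the same times. In the rescue line it gave 14177, 10436, 11130, 14831 and 20190. The E100-/- array was the lowest and the rescue array the highest of the 3 at every time, although E14wt and rescue were nearly equal at 180 min. In each line 180 min was the highest of the 5 arrays, and the lowest was 30 min in E14wt and E100-/- and 10 min in the rescue line.

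Mt2 gave 23151, 7400, 8028, 17495 and 27191 in E14wt at the same 5 times. In E100-/- it gave 5108, 4991, 5129, 13099 and 17551. In the rescue line it gave 9102, 19397, 17779, 24965 and 18397. Again the E100-/- array was the lowest of the 3 at every time, while the highest was E14wt at 0 and 180 min and the rescue line at 10, 30 and 60 min. E14wt and E100-/- were highest at 180 min, whereas the rescue line was highest at 60 min and lowest at 0 min.

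**Figure D1:**
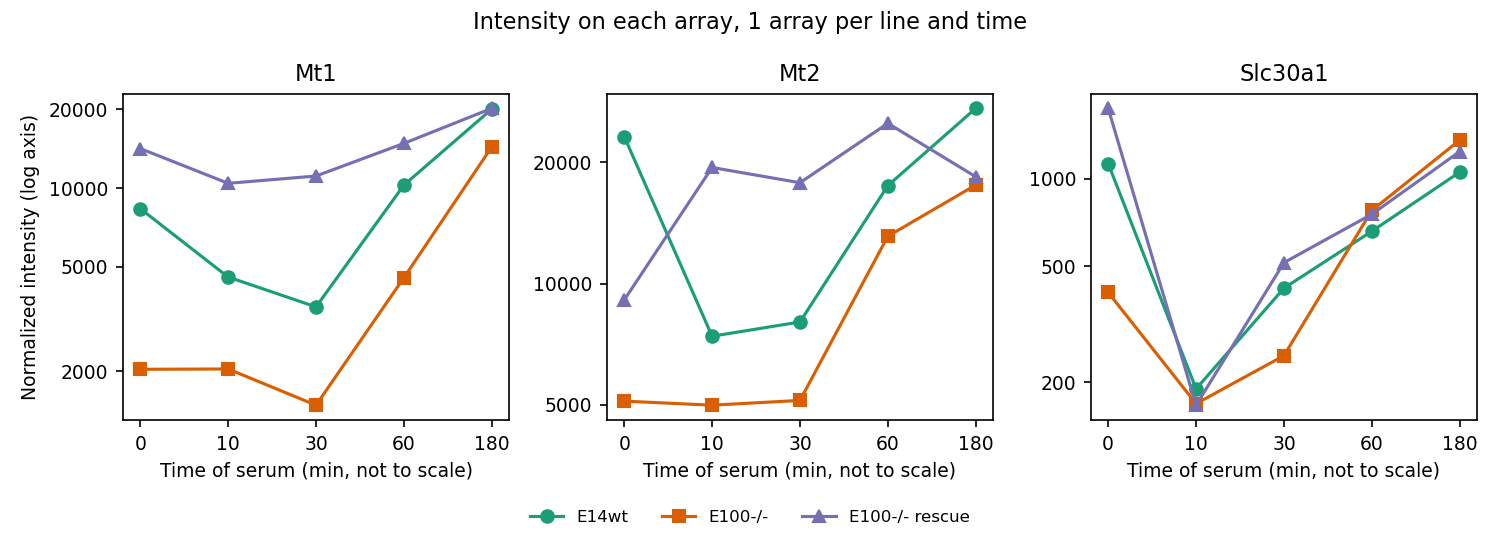
Normalized intensity (log axis) of Mt1, Mt2 and the zinc exporter gene Slc30a1 against time of serum in minutes (not to scale), 1 point per array and 1 line per cell line. For Mt1 and Mt2 the E100-/- squares lie lowest at all 5 times, and at 180 min the 3 lines lie closest together for Mt1, between 14379 and 20190.

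Over the 5 times of a line, the geometric mean intensity of Mt1 was 7737 in E14wt, 3316 in E100-/- and 13759 in the rescue line, with an SD of 0.99, 1.33 and 0.38 on the log2 scale (n = 5 time points each). For Mt2 it was 14559, 7863 and 17052, with an SD of 0.87, 0.88 and 0.54. These SDs hold the serum response as well as noise. In order of level both genes ran rescue, E14wt, E100-/-, and the ranges over time of all 3 lines overlapped for both genes. Neighbours in that order lay 0.83 and 1.22 apart for Mt1 and 0.23 and 0.89 apart for Mt2 on the log2 scale, no more than the larger SD of either line for Mt1, and for Mt2 about as much at most.

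In an additive fit of line and time over all probe sets, Mt1 was 1.64 ± 0.25 lower on the log2 scale in E100-/- than in the mean of both other lines (SE; n = 5 against 10 arrays), which is 3.11-fold. Mt2 differed by -1 ± 0.29 (2-fold). Against E14wt alone, E100-/- differed by -1.22 ± 0.29 for Mt1 and by -0.89 ± 0.34 for Mt2. The rescue line exceeded E100-/- by 2.05 ± 0.29 for Mt1 and by 1.12 ± 0.34 for Mt2. Rescue against E14wt gave 0.83 ± 0.29 for Mt1 and 0.23 ± 0.34 for Mt2. For Mt2 that difference was smaller than its SE. As background with nothing read from it, since the choice of the pair rests on this contrast, 0.136% of the 9558 probe sets tested passed the limma threshold (adjusted p under 0.05) for E100-/- against both other lines, and 0.879% had E100-/- lowest at all 5 times as Mt1 and Mt2 did.

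The gap between lines was not even over time. At 0, 10, 30, 60 and 180 min, the log2 difference of Mt1 between E100-/- and E14wt was -2.04, -1.17, -1.25, -1.18 and -0.48. The difference between the rescue line and E100-/- was 2.8, 2.36, 2.91, 1.71 and 0.49. For Mt1 both gaps were therefore smallest at 180 min, when all 3 arrays were bright. For Mt2 the difference between E100-/- and E14wt was -2.18, -0.57, -0.65, -0.42 and -0.63. That between the rescue line and E100-/- was 0.83, 1.96, 1.79, 0.93 and 0.07. Each of these is 1 array against 1 and has no error of its own.

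**Figure D2:**
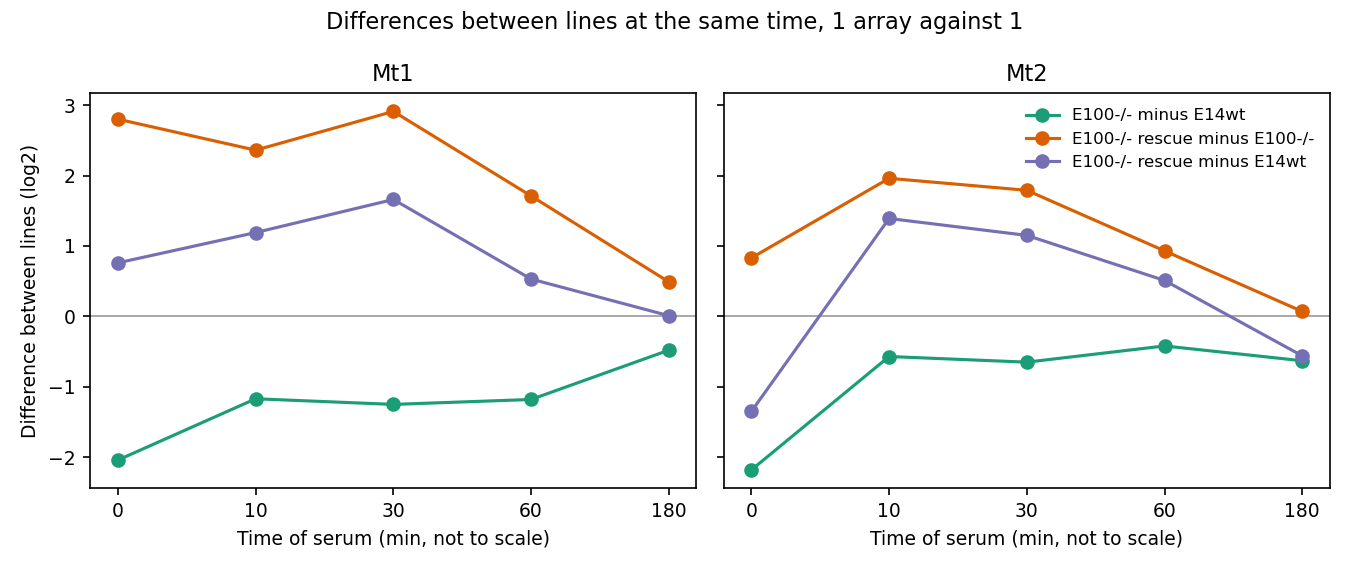
Log2 difference in normalized intensity between lines at the same time of serum (minutes, not to scale), 1 array against 1, for Mt1 and Mt2. E100-/- minus E14wt lies below 0 at all 5 times for both genes, and for both the rescue minus E100-/- difference is smallest at 180 min (0.49 for Mt1 and 0.07 for Mt2).

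The 0 min arrays weigh on the size of these differences. The array labelled E14wt 0 min had a beta-actin 3' to 5' probe ratio, a sign of RNA integrity, of 7.53 and rescue 0 min had 4.22, against a median of 1.64 over the 15 arrays. E100-/- 60 min (3.83) and E100-/- 0 min (2.94) came next. The Gapdh 3' to 5' ratio (median 0.742) was 1.51 on E14wt 0 min, 1.27 on E100-/- 0 min and 1.23 on E14wt 180 min. It was 0.722 on rescue 0 min and 0.785 on E100-/- 60 min, so the beta-actin and Gapdh ratios did not single out the same arrays. On the E14wt 0 min array Mt2 was 3.13-fold its 10 min level, and on the rescue 0 min array it was 0.469 of its 10 min level, the 2 genes going opposite ways there in the rescue line (Mt1 1.36-fold). Without the 3 arrays of 0 min, E100-/- against both other lines gave -1.44 ± 0.28 for Mt1 and -0.88 ± 0.27 for Mt2, and Mt2 against E14wt alone gave -0.57 ± 0.31 in place of -0.89. Rescue against E14wt for Mt2 became 0.62 ± 0.31 in that fit. The background in those 12 arrays was 1.16% of probe sets called. The part of RNA integrity in the line differences was not tested.

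Other array measures were wide as well: the 2% trimmed mean of deposited intensity ran from 350 to 1440, and 24.9% to 41.6% of values were at or below 0, with the highest shares (37.1% to 41.6%) on E100-/- 30, 60 and 180 min and rescue 0 and 10 min. Both genes were above the detection floor on 15 of 15 arrays. The 8 ES cell markers listed (such as Pou5f1 and Sox2) were all tested, with summed intensities of 59524 to 98962 in E14wt, 74816 to 102639 in E100-/- and 65123 to 88455 in the rescue line. For E100-/- against both other lines limma called 0 of 8, and 0.136% of all probe sets, so nothing is read from the 0. All 8 were higher in E100-/- in that comparison, with a median of 0.27 against 0.01 over all probe sets (log2). Feeder fibroblast markers (9 of 12 tested) summed to 2383 to 5587, 1938 to 2927 and 2040 to 2872 in the same order, and endoderm markers (10 of 14) to 4245 to 7341, 4849 to 6661 and 4806 to 6772. Trophoblast markers (5 of 8) summed to 121 to 1211, 174 to 1396 and 2009 to 4931. This sum was higher on all rescue arrays, the line in which Mt1 was also highest. Tfap2c, the brightest of the 5 (mean log2 9.06, the others 6.72 to 7.85), was called lower in E100-/- (-2.98 ± 0.50, limma adjusted p = 0.0457). It was above the floor on 10 of 15 arrays, so its difference and error rest in part on floored values. The others differed by 0.49 (Cdx2), -0.09 (Eomes), -0.19 (Elf5) and -0.35 (Gata3), and none was called. The sum therefore does not describe these markers as a set. The other tested trophoblast markers were mostly at the floor, with Cdx2 above it on 4 arrays, Gata3 on 5 and Elf5 on 6, while Eomes was above it on 14. The part of such cells in the Mt1 and Mt2 levels was not tested, and in these bulk samples fewer cells of a type and less RNA per cell cannot be told apart.

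The serum course of both genes in E14wt and E100-/- was low at 10 and 30 min and higher at 60 and 180 min. Mt1 at 180 min was 4.39-fold its 10 min level in E14wt, 7.06-fold in E100-/- and 1.93-fold in the rescue line. Mt2 was 3.67-fold, 3.52-fold and 0.948-fold. From 30 to 60 min, Mt1 was 2.92-fold, 3.07-fold and 1.33-fold and Mt2 2.18-fold, 2.55-fold and 1.4-fold. The 60 min array was thus above the 30 min array in all 3 lines for both genes, each 1 array against 1. This step was smallest in the rescue line, whose levels at 10 and 30 min lay near those of E14wt at 60 min. Mt1 was above its 10 and 30 min levels at both 60 and 180 min in all 3 lines, as were 1.03% of probe sets, and 180 min was the highest of 5 arrays in all lines for 0.596% of probe sets, Mt1 among them and Mt2 not.

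The test of the serum response used 180 min against the mean of 0 and 10 min (late) and 30 and 60 min against the same baseline (early), each line having its own phases. Averaged over the 3 lines, the late response was 1.75 ± 0.42 for Mt1 on the log2 scale (SE; 95% interval 0.79 to 2.71), or 3.36-fold, the 37th largest of 9558. For Mt2 it was 1.11 ± 0.46 (interval 0.07 to 2.14). Neither passed the threshold over all probe sets in limma (Benjamini-Hochberg adjusted p = 0.578 for Mt1 and 1 for Mt2), where 5 probe sets passed (0.0523%), among them Egr1 and Fosl1, and 387 had an unadjusted p under 0.05. Since each line has 1 array at 180 min, the spread behind these errors comes only from 0 against 10 min and 30 against 60 min, and it holds the step between 30 and 60 min. The late response was positive in all 3 lines for both genes, which for Mt2 in the rescue line rested on its low 0 min array. Leaving out the 0 min arrays, so that 10 min alone was the baseline, gave 1.97 ± 0.65 for Mt1 (limma adjusted p = 0.386) and 1.21 ± 0.53 for Mt2 (adjusted p = 0.499), where 1.74% of probe sets passed. In that fit the spread is the difference between 30 and 60 min alone, which for these genes holds the serum step, so its errors and p-values are not measures of replicate noise.

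Among the 897 probe sets with a mean log2 intensity of at least 12, where the median absolute late change was 0.12, Mt1 had the largest late increase and Mt2 the 5th largest. In the 12 arrays without 0 min they ranked 3rd and 6th. This comparison by brightness was chosen after the values were seen, and it carries no test. On the array the genes also sat near the top of the range, with Mt1 at percentiles 99.4, 98.8 and 99.4 of all probe sets at 180 min in E14wt, E100-/- and rescue, and Mt2 at 99.8, 99.2 and 99.3. Whether bright spots were limited in signal there was not tested.

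**Figure D3:**
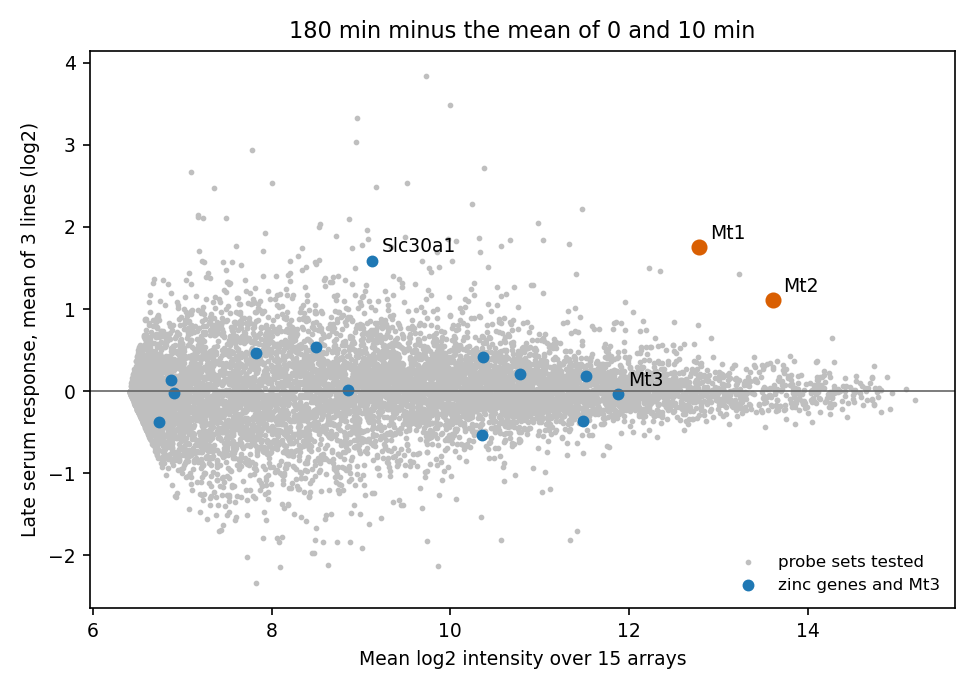
Late serum response (180 min minus the mean of 0 and 10 min, log2, mean of 3 lines) against mean log2 intensity over 15 arrays, 1 point per probe set tested. Mt1 (1.75) and Mt2 (1.11) rank 1st and 5th among the 897 probe sets with a mean of at least 12, Slc30a1 (1.59) is dimmer, and Mt3 lies at -0.04.

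Line by line, with errors of the same origin, the late response of Mt1 was 1.7 ± 0.74 in E14wt (limma adjusted p = 0.572), 2.82 ± 0.74 in E100-/- (adjusted p = 0.576) and 0.73 ± 0.74 in the rescue line (adjusted p = 1). For Mt2 it was 1.05 ± 0.79, 1.8 ± 0.79 and 0.47 ± 0.79 (adjusted p = 0.802, 0.984 and 1). Both genes thus had their largest value in E100-/-, from the lowest baseline, and their smallest in the rescue line. For Mt2 the order of E100-/- and E14wt rested on the 0 min arrays. Its 180 min level was 3.67-fold its 10 min level in E14wt and 3.52-fold in E100-/-. The Mt2 difference of late response between E100-/- and E14wt was 0.74, and -0.06 without the 0 min arrays. The differences of response themselves did not pass: E100-/- against E14wt was 1.12 ± 1.04 for Mt1 (interval -1.23 to 3.47, limma adjusted p = 0.867), and rescue against E100-/- was -2.09 ± 1.04 for Mt1 (interval -4.44 to 0.26, adjusted p = 0.894) and -1.33 ± 1.12 for Mt2 (interval -3.87 to 1.21, adjusted p = 0.97). All 3 intervals are wide and include 0. With arrays scaled to a common median, rescue against E100-/- was -3.25 for Mt1 (limma adjusted p = 0.159) and -2.16 for Mt2 (0.331), and E100-/- against E14wt was 0.71 for Mt1 (0.825). Of all probe sets, 0.282% passed for the late response in E14wt, 0.0314% in E100-/- and 0% in the rescue line (346 had an unadjusted p under 0.05 by limma there). For the differences of response the shares were 0.0314% (E100-/- against E14wt), 0.0105% (rescue against E100-/-) and 0% (rescue against E14wt, with 504 at an unadjusted p under 0.05 by limma). The early response averaged 0.13 ± 0.35 for Mt1 and 0.41 ± 0.37 for Mt2 (limma adjusted p = 0.995 for both), and 0% of probe sets passed (243 had an unadjusted p under 0.05).

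Mt1 and Mt2 moved together over the arrays. Pearson's r of their log2 values was 0.87 and Spearman's rho 0.8 over the 15 arrays, which share lines, times and the normalization. With the mean of each line taken out, r was 0.82, and without the 2 arrays farthest in Mt1 (E100-/- 0 and 30 min) it was 0.8. Without the 0 min arrays r was 0.95. Of the 0 min arrays, rescue lay off the trend with a high Mt1 (14177) and a low Mt2 (9102), and E14wt lay off it on the other side (8353 and 23151). Without these 2 arrays r was 0.96. They are named here for lying off the trend, so the higher r follows from that choice and nothing is read from it. Transcripts of the pair are similar in sequence and probe sequences were not used here, so binding of one transcript to the probes of the other cannot be told apart from a shared change.

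**Figure D4:**
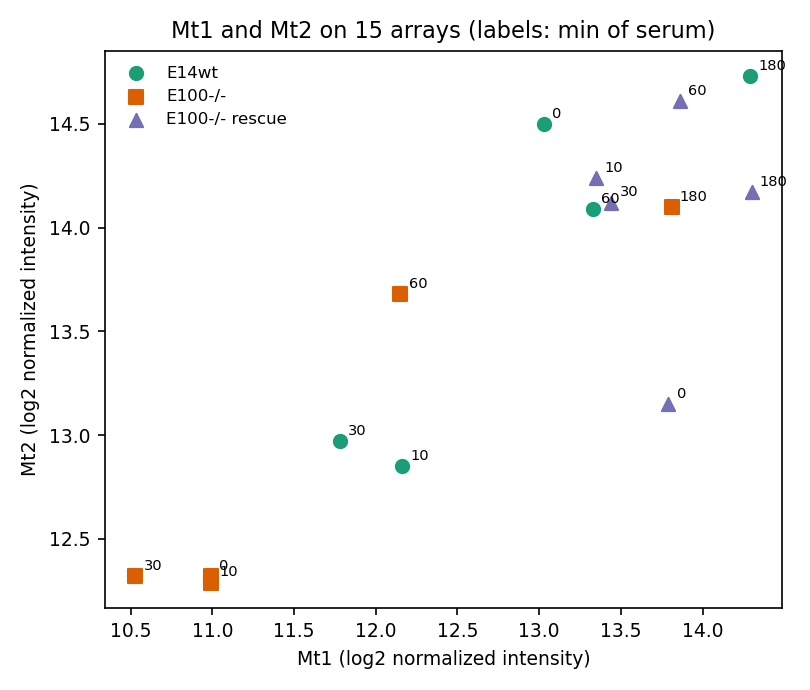
Log2 normalized intensity of Mt2 against that of Mt1, 1 point per array, marked by line and labelled with minutes of serum. The points run together from E100-/- at 0, 10 and 30 min at the lower left to the 180 min arrays at the upper right (r = 0.87), with rescue 0 min below this trend and E14wt 0 min above it.

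Of the rest of the family only Mt3 was tested, and it did not follow the pair. Mt3, the metallothionein known mainly from brain, was above the floor on 15 of 15 arrays, with intensities from 2580 to 5665 in E14wt, 2868 to 6125 in E100-/- and 2208 to 4096 in the rescue line. Its difference between E100-/- and both other lines was 0.09 ± 0.18 and its mean late response -0.04 (0.33 against 10 min alone), and neither passed. Mt4, known from stratified epithelium, was above the floor on 1 array and was not tested. Of the 20 protein-coding genes nearest the pair, 10 on each side, 8 were tested, Mt3 among them. Between lines 0 of these 8 were called by limma, with differences from -0.34 to 0.33 and the lowest p for Nudt21 (-0.27 ± 0.10). The 0.136% of all probe sets called makes 0 of 8 no result about this region. Their late responses ran from -0.25 to 0.11.

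The likest pattern to Mt1 among 6073 probe sets with 1 gene symbol and above the floor on at least 10 arrays was that of Dusp1, a phosphatase that shuts off MAP kinases (r = 0.87 over 15 arrays), then Mt2 (0.87), Id3, an inhibitor of bHLH transcription factors (0.86), Adpgk, an ADP-dependent glucokinase (0.85), and Ndel1, a dynein regulator (0.83). The likest to Mt2 were Mt1 (0.87), Tex19.1 (0.83), the poly(A)-binding protein gene Pabpc4 (0.81), Eepd1 (0.81) and Lamtor1 (0.8), which encodes a lysosomal anchor of mTORC1 signalling. Dusp1 gave 1675, 1628, 1077, 4263 and 6006 in E14wt, 942, 1239, 1228, 2988 and 5413 in E100-/-, and 5029, 1994, 2249, 5001 and 7315 in the rescue line. As for Mt1, its 180 min array was the highest of each line, and its E100-/- array was below both others at 0, 10, 60 and 180 min and above E14wt at 30 min. All these genes were ranked on the same 15 arrays, so likeness describes them only.

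Genes of zinc transport and sensing are the closest known partners of the pair. Of the 16 listed, 12 were tested and 0 were called by limma, for E100-/- against both other lines in 15 or 12 arrays or for the early or late response. Over all probe sets 0.136%, 1.16%, 0% and 0.0523% were called in these 4 comparisons, so a list of this length need hold no call and nothing is read from the 0. The list's medians were 0.03 (line difference) and 0.16 (late) against 0.01 and -0.01 over all probe sets. Slc30a1, the plasma membrane zinc exporter and a known MTF-1 target, was the member of the list with the largest late value. It gave 1127, 190, 421, 660 and 1053 in E14wt, 407, 169, 247, 778 and 1356 in E100-/-, and 1743, 167, 515, 755 and 1239 in the rescue line. In all 3 lines it was higher at each step from 10 to 180 min, a pattern of 6 probe sets (0.0628%) that was singled out after its values were seen, and its 180 min array was 5.54-fold, 8.05-fold and 7.42-fold its 10 min array. Its 0 min arrays were also high, 5.93-fold, 2.42-fold and 10.4-fold those of 10 min, so the late response against 0 and 10 min was 1.59 ± 0.84 (limma adjusted p = 1), and against 10 min alone 2.79 ± 0.56 (adjusted p = 0.186). At 180 min its 3 lines lay between 1053 and 1356, and its line difference was -0.48 ± 0.31, with no call. Mtf1 itself was above the floor on 8 of 15 arrays. Among the importers, Slc39a4 had a late value of -0.53 and Slc39a6 of 0.54, and the vesicle zinc transporter Slc30a3 had -0.36. The line differences lay on both sides of 0. Those of lowest p were 0.95 ± 0.28 for the importer Slc39a3 (0.66 ± 0.26 in 12 arrays), -0.53 ± 0.21 for the importer Slc39a8 (-0.66 ± 0.14 in 12 arrays), -0.36 ± 0.20 for Slc30a5 and -1.01 ± 0.58 for Slc30a4 (-1.24 ± 0.60 in 12 arrays), the last as large as that of Mt2. In 15 arrays the limma adjusted p of these 4 ran from 0.273 to 0.575, and the lowest in 12 arrays was 0.0662, for Slc39a8. Slc39a3 was above the floor on 5 of 15 arrays, Slc39a8 on 7 and Slc30a4 on 11, so their differences and errors rest in part on floored values.

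The copper, iron and antioxidant lists held no call by limma in the same 4 comparisons, where 0.136%, 1.16%, 0% and 0.0523% of all probe sets were called. At such shares these lists need hold no call, and nothing is read from its absence. Of copper genes 8 of 11 were tested (line median 0.13, late median -0.02), of iron genes 5 of 12 (0.02 and 0.01), and of antioxidant and NRF2 genes 17 of 21 (0 and 0.11). Of the copper genes, Ccs, the copper chaperone of superoxide dismutase, and Atox1, another copper chaperone, had the line differences of lowest p, 0.69 ± 0.23 and 0.23 ± 0.10, and the exporter Atp7a and Commd1 the late values of lowest p, -0.63 and -0.48. Of the iron genes these were Ireb2 (-0.14) and Slc11a2 (0.06) between lines and Aco1, the iron-sensing aconitase (0.99), and Ireb2 (0.11) late. Of the antioxidant genes they were Nqo1 (-0.85 ± 0.31) and Gpx4 (-0.47 ± 0.21) between lines and Txnrd1 (0.46) and Gsta4 (-0.29) late. Gss, a glutathione synthesis enzyme, was the antioxidant gene of lowest p in the 12 arrays, at 0.86 ± 0.22 (limma adjusted p = 0.121). Differences in both directions occurred, and none was called.

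A list of glucocorticoid targets and a list of LIF and STAT3 genes, signalling parts such as Lifr and Stat3 included, stand for the other known inducers. None of their late values passed, but only 0.0523% of all probe sets did, so nothing is read from that. Of 13 of 15 glucocorticoid targets tested, 0 were called for the late response, and 8 were above 0 (median 0.38, range -0.98 to 3.03). The lowest p belonged to 3.03 ± 0.79 for Zfp36 (limma adjusted p = 0.632) and 1.80 ± 0.51 for Dusp1 (0.729), both of them also serum-induced genes, then 0.74 for Ddit4 and -0.98 for Cdkn1c. Between lines, 1 of the 13 was called in 12 arrays, where 1.16% of all probe sets were. It was Errfi1, which encodes an inhibitor of EGF receptor signalling, at -1.72 ± 0.27 (limma adjusted p = 0.027), with -1.53 ± 0.30 in 15 arrays (0.0809). Of the LIF and STAT3 genes 9 of 10 were tested and 0 called. Of these 9, 8 had a late value above 0 (median 0.47 against -0.01 over all probe sets, range -0.75 to 2.49). The lowest was that of Bcl3, which was above the floor on 3 of 15 arrays. Socs3, the feedback inhibitor of STAT3 signalling, had 1.43 ± 0.42 (limma adjusted p = 0.783) and Junb 2.49.

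**Figure D5:**
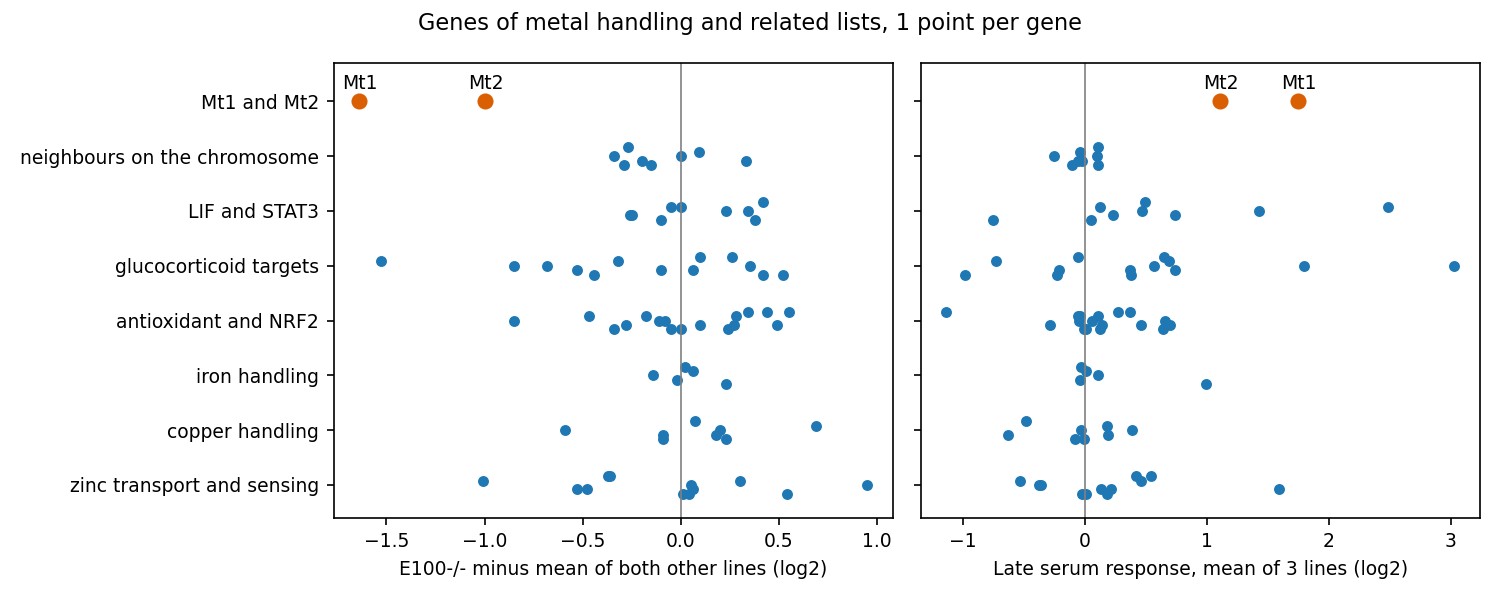
Log2 difference of E100-/- from the mean of both other lines (left) and mean late serum response (right), 1 point per tested gene by list, with Mt1 and Mt2 in the top row. Mt1 (-1.64) lies lowest of the line differences shown, Errfi1 (-1.53), Slc30a4 (-1.01) and Mt2 (-1) come next, and the pair's chromosomal neighbours lie between -0.34 and 0.33. The pair was chosen by differences between lines, so nothing is read from its place on the left. Marker genes, such as Tfap2c (-2.98), are not plotted.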

How the data were processed

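Total RNA of mouse ES cells was hybridized to Affymetrix MGU74A arrays, per the labels. The authors deposited linear intensity for 12654 probe sets (66 controls). Their software, background correction and scaling are not stated in the labels or headers. Because trimmed means differed between arrays, the values were quantile-normalized, floored at the 40th percentile (85.0, log2 6.41) and log2-transformed, and the 9558 that exceeded this floor on 2 or more arrays were tested with limma 3.58.1 in R 4.3.3 (lmFit, eBayes with trend, Benjamini-Hochberg adjusted p under 0.05). Lines were fitted additively with time (8 residual degrees of freedom, 6 without 0 min), serum responses by line and phase (6). A line call needed 1 direction against both other lines. Names came from GEO's platform annotation where probe sets had 1 symbol (10298, with 363 having several and 1993 not listed). Groups came from sample titles. A list gene was read by its brightest tested probe set. Named genes were Mt1, Mt2, list members that passed (otherwise up to 4 of lowest p, for the line difference and the late response) and the 5 likest patterns to each. The members and lists were chosen with earlier results of these data known. Alternatives covered scaling, floor, filter, a technical term and left-out arrays. Both fits were tested on simulated data with independent noise and large planted changes. That simulation held no change of level within a phase, so it says nothing of the errors of the serum responses here. The number of arrays limits the precision. Promoters came from RefSeq (GRCm38.p6), matched by symbol for 2 of 2 members.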

Additional observations from a re-analysis of the deposited data

How the results depend on the processing

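The line differences of Mt1 and Mt2 kept their direction under all 23 alternatives (E100-/- against both other lines from -1.98 to -1.44 for Mt1 and from -1.27 to -0.78 for Mt2), except that rescue against E14wt for Mt2 ran from -0.02 to 0.59 when 1 array was left out and was -0.02 without rescue replicate 2 (10 min). The mean late response stayed positive under all 24, from 1.21 to 2.26 for Mt1 (adjusted p 0.205 to 1) and from 0.76 to 1.44 for Mt2 (0.369 to 1), and passed in none. Probe sets called between lines were 13, and 2 with arrays scaled to a common median, 1 with no further scaling, 111 without 0 min, 0 with the share of values at or below 0 as a term (limma, adjusted), 119 without E14wt 0 min and rescue 0 min, 41 without the 4 arrays of highest beta-actin ratio, and 3 to 66 leaving out 1 array. Late calls were 5, and 0 with no further scaling, with the share term and in the additive fit, 233 with no filter, 166 without 0 min, 2 with a floor at the 60th percentile, 16 without E14wt 0 min and rescue 0 min, 672 without the 4 arrays, and 2 to 50 leaving out 1 array. Early calls were 0, and 15 with no filter, 66 without 0 min and 0 to 86 leaving out 1 array, and the early response of Mt1 ran from -0.14 to 0.4 leaving out 1 array. Differences of response between lines reversed for the early response of Mt1 in rescue against E14wt (-0.57 with a common median and -0.09 without 0 min) and E100-/- against E14wt (-0.04 without 0 min), for the early response of Mt2 in rescue against E14wt (-0.56 without 0 min), and for the late response of Mt2 in E100-/- against E14wt (-0.06 without 0 min). With a common median other differences of response moved by over 1.5 times without passing. Those of rescue against E100-/- were -2.14 for Mt1 and -2.05 for Mt2 (early, in place of -0.27 and -0.03), -3.25 and -2.16 (late, in place of -2.09 and -1.33). Those of rescue against E14wt were -2.54 and -2.13 (late, in place of -0.97 and -0.59) and 0.21 for Mt2 (early, in place of 0.81). Those of E100-/- against E14wt were 1.57 and 2.27 (early, in place of 0.39 and 0.84), and 0.71 and 0.03 (late, in place of 1.12 and 0.74). Without 0 min, the late difference was -1.95 for Mt2 in rescue against E14wt and 0.69 for Mt1 in E100-/- against E14wt, and the early one 0.04 for Mt2 in E100-/- against E14wt and -0.05 for Mt1 and -0.6 for Mt2 in rescue against E100-/-. The cause was not tested. The 60th percentile floor, the additive fit and the settings that leave out the 2 or the 4 named arrays were chosen after seeing the data. A floor at the 20th percentile was not run because it lies below 0, and each gene has a single probe set to read. The labels give no replicate numbers, so no replicate block was fitted, and the additive fit pairs the lines by time.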
